A study of Homo sapiens with 4 samples.

Results

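Whole-genome bisulfite sequencing was used to compare HUDEP-2 cells differentiated with an inhibitor of EED against the same line differentiated with the vehicle DMSO. HUDEP-2 is an immortalised human line of erythroid precursors that can be driven towards red cells in culture. The comparison rests on 2 of the 4 libraries of the series, 1 for each treatment, and was made over 23387896 CpGs of chromosomes 1 to 22 that both libraries list, 95.5% of the 24487674 CpGs listed in either. Compounds were dissolved to a final DMSO content of 0.1%, were present from expansion onwards, and stayed on through 4 days of growth and 2 days of maturation. The labels state that the DMSO cells make adult haemoglobin and that the EED inhibitor cells made more fetal haemoglobin; they give neither the name nor the dose of the inhibitor. A library of untreated, non-differentiated HUDEP-2 cells is given beside both as a point of reference. It lists 98.4% of these CpGs, so the 3 levels of a gene or region need not rest on the same CpGs. Where that moved a printed level by over 1.5 points, and in each comparison of many units with this library, levels are over the CpGs listed in all 3 libraries, and the text says so. With 1 library per group there is no estimate of the spread between cultures, so no test was made. Intervals in brackets are 95% intervals that cover the counting of reads alone.

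EED is the subunit of Polycomb repressive complex 2 (PRC2) that binds trimethylated lysine 27 of histone H3 and stimulates the enzyme EZH1 or EZH2, which writes that mark. Inhibitors that occupy this pocket of EED lower the mark over its targets, which in most cells are CpG-rich starts of developmental regulators. DNA methylation, the addition of a methyl group to the cytosine of a CpG, is written by other enzymes; it covers most of the genome, is low at CpG islands, and is partly lost over long, gene-poor, CpG-sparse domains in cultured cells. Neither the histone mark nor transcription was measured in these libraries.

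The libraries differed in both directions, and 4 stretches show sequence from regions that were higher (the first 2) and lower (the last 2) with the inhibitor. Each is the part with most shared CpGs, at most 300 bases long, of the 1 kb window with the largest difference among those that overlap its gene body or region, so its difference was selected and is a description. Sequences are hg38, plus strand, with CpGs shared by both libraries in capitals. The first lies in coding sequence of MSX1, a homeobox regulator of craniofacial and limb development (chr4:4862691-4862985). The second lies in an intron of the noncoding gene MIR9-3HG, host of a neural microRNA (chr15:89372712-89372954). The third lies in an intron of AGK, which encodes a mitochondrial lipid kinase (chr7:141603686-141603959). The fourth lies between genes on chromosome 4 (chr4:164447021-164447164), and its 1 kb window is 62982 bp from the start of MARCHF1.
MSX1: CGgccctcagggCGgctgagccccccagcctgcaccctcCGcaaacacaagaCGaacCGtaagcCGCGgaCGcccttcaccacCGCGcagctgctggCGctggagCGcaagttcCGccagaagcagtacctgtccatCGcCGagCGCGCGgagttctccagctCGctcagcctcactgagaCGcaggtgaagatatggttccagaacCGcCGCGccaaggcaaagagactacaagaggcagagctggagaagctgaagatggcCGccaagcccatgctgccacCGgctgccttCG
MIR9-3HG: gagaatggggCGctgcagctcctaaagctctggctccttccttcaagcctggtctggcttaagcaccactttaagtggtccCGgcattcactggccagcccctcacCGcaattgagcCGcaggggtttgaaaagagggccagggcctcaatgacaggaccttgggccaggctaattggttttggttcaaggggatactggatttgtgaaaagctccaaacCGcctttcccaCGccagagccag
AGK: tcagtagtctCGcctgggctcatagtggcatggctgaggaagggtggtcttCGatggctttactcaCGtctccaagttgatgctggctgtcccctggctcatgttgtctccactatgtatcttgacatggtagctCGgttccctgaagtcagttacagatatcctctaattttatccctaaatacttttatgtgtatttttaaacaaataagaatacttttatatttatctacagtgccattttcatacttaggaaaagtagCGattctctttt
Near MARCHF1: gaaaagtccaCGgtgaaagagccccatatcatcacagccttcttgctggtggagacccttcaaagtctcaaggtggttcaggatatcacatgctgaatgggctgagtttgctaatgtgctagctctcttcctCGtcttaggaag
The MSX1 stretch holds 26 shared CpGs in 295 bases and was 41.5% methylated in DMSO and 59.1% in treated cells. Over the 21 of them listed in all 3 libraries it stood at 48.4% before differentiation, 41.9% in DMSO and 56.8% with the inhibitor. The MIR9-3HG stretch, with 6 CpGs, stood at 53.5% before differentiation, 25.0% in DMSO and 62.9% in treated cells, and all 6 CpGs were higher. The AGK stretch, with 5 CpGs, stood at 87.4%, 93.1% and 71.7% in the same order. The stretch near MARCHF1 holds 2 CpGs in 144 bases and stood at 27.9%, 44.6% and 14.9%. Every shared CpG of the last 2 stretches was lower with the inhibitor, and 23 of the 26 in MSX1 were higher.

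Coverage was similar in the 2 libraries, with means of 28.7 (DMSO) and 30.7 (EED inhibitor) reads per shared CpG, but 2 chromosome segments differed. Relative to the other autosomes, chromosome 18 had fewer reads in the EED inhibitor library (median log2 ratio -0.33 over bins of 5 Mb), and chromosome 10 beyond 100 Mb had more (0.26), while the 519 bins of the 20 other autosomes lay between -0.08 and 0.08. The methylation difference was -1.53 points on chromosome 18, -0.64 points on the end of chromosome 10 and -1.03 points on the 20 autosomes other than these 2. Without chromosomes 18 and 10 no count of called units moved by more than 1.5 times, and the values that moved beyond their counting interval are given in the closing section. The label of the line was checked at marker promoters. The 14 measured promoters of erythroid genes had a median level of 16.1% in DMSO and 18.7% with the inhibitor, with a median difference of -0.30 points per promoter, and those of 14 genes of other blood lineages 56.8% and 55.8%. Members of the erythroid list differed widely. The promoter of KLF1, an erythroid transcription factor, was at 2.05% and 0.57%, below the medians of the list. Those of EPOR and AHSP were above the medians in both libraries, with values given further on.

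Methylation was 1.02 points lower with the EED inhibitor over all shared CpGs, at 59.2% against 60.3% in DMSO (difference -1.02 to -1.01), with 61.7% before differentiation. It was lower on 22 of 22 chromosomes, between -1.53 and -0.41 points. Single CpGs moved both ways: 46.4% were lower, 42.6% higher and 11.1% equal, and 70.8% lay within 10 points. The difference was not spread evenly. When 100 kb bins were ranked by their level outside CpG islands before differentiation and cut into deciles, the lowest decile stood at 35.3% in DMSO and 33.2% with the inhibitor (-2.13 points, -2.15 to -2.11) and 98.1% of its bins were lower. The difference shrank along the ranks to -1.86, -1.64, -1.38, -1.09, -0.72, -0.44 and -0.12 points, reached -0.06 points in the ninth decile, and was -0.26 points in the highest (88.1% in DMSO, 87.8% in treated cells). The 6 lowest deciles and the highest were lower on 22 of 22 chromosomes each, and the seventh, eighth and ninth on 19, 14 and 13.

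**Figure D1:**
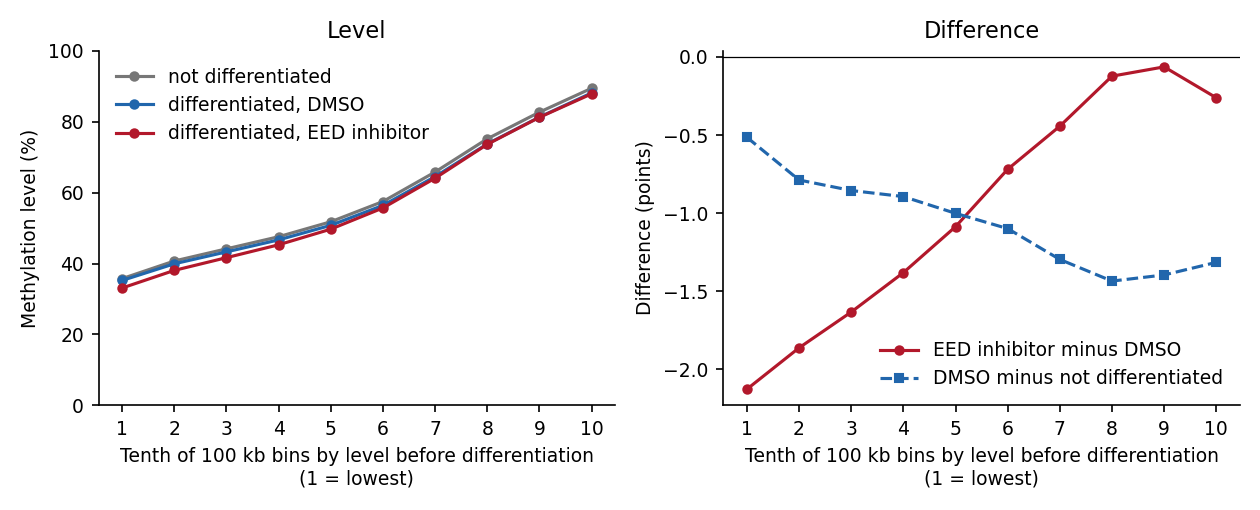
Methylation level (left, in percent) and difference in level (right, in points) for deciles of 100 kb bins ranked by their level before differentiation, over CpGs listed in all 3 libraries, 1 library per line. The EED inhibitor difference runs from -2.13 points in the lowest decile to -0.26 in the highest, and the DMSO minus non-differentiated difference from -0.51 to -1.32.

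The change that came with differentiation in vehicle had another shape. Over CpGs listed in all 3 libraries, DMSO minus non-differentiated was -0.51 points in the lowest decile, -1.44 points in the eighth and -1.32 points in the highest. Both comparisons use the DMSO library, so its own deviations enter them with opposite sign. Set directly against the non-differentiated library, the EED inhibitor library was lower in every decile, with -2.64 points in the lowest and -1.58 in the highest. Coverage moved along the ranks too: the inhibitor library had 1.09 times the reads of DMSO in the lowest decile and 1.05 times in the highest, and the part of this in the result was not tested.

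Within the low-methylated domains (the 3 lowest deciles) all 12 CpG contexts examined were lower with the inhibitor. CpGs with no other CpG within 35 bp and A or T on both sides, the kind that loses most methylation in dividing cells, were at 15.5% in DMSO and 14.2% with the inhibitor (-1.31 points). Isolated CpGs with A or T on 1 side stood at 34.1% in DMSO and differed by -2.12 points, and those with C or G on both sides at 50.6% and -2.27 points. CpGs with 3 or more neighbours and C or G on both sides stood at 76.7% and differed by -1.04 points. As a share of the DMSO level, 91.5% was left at isolated A or T flanked CpGs and 98.6% at the crowded C or G flanked ones.

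At single loci few units passed the sizes used for a call. Of 26685 bins of 100 kb, 22 were lower by at least 5 points (0.0824%) and 17 higher (0.0637%). Chromosome 4 held 10 of the 22 lower bins but 6.96% of the bins measured. Over CpGs listed in all 3 libraries, the inhibitor library was below both other libraries in 22 of 22 lower bins and above both in 17 of 17 higher bins. All 22 lower bins were at least 2.5 points below the non-differentiated library, with a median of -5.61 points, and 7 of the 17 higher bins at least 2.5 points above it, with a median of 1.57 points. DMSO was outside the non-differentiated library, on the side away from the inhibitor library, in 12 of the 22 lower and 15 of the 17 higher bins. Bins and all other called units were chosen by the inhibitor minus DMSO difference, which places these libraries towards the extremes, so such counts are a description. DMSO minus non-differentiated gave 16 lower bins (0.06%) and no higher one at the same size.

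The lower run with the largest difference covered MPDZ, which encodes a scaffold protein with many PDZ domains. Its 2 bins, at chr9:13100001-13300000, read 54.7% before differentiation, 54.8% in DMSO and 46.5% with the inhibitor (-8.31 points, -9.04 to -7.58). In 10 kb windows, those over the gene stood at 55.9% in DMSO and 46.8% with the inhibitor (-9.08 points), all 18 of them between -15.3 and -0.12 points. The 22 windows beside it differed by -2.58 points, between -7.29 and 1.37. The difference was larger over the gene body than beside it, though 38 of all 40 windows were lower. The window that holds the start read 50.7% in DMSO and 50.6% with the inhibitor.

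**Figure D2:**
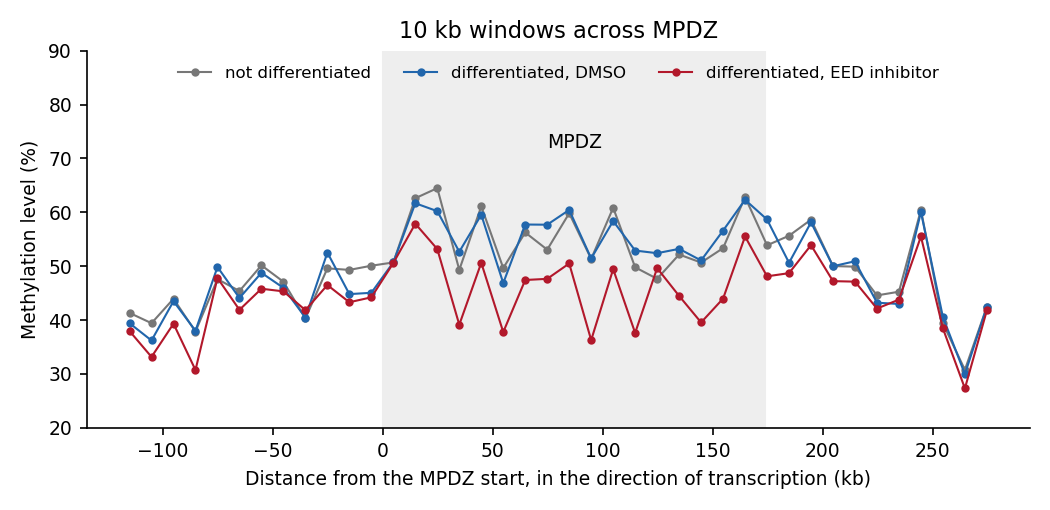
Methylation level in percent of 10 kb windows by distance in kb from the MPDZ start, for the 3 libraries; the grey band is the gene. The EED inhibitor line lies below DMSO in all 18 windows of the gene, by up to 15.3 points, and within 7.29 points of DMSO outside it; in 1 of the 18 it is above the non-differentiated line, at 49.6% against 47.7%.

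AGK was the same kind of case in a highly methylated gene. Its body read 91.5% before differentiation, 90.7% in DMSO and 82.7% with the inhibitor (-7.99 points), and 13 of 14 windows of 10 kb in and before the gene were lower, 8 of them by at least 5 points. Of the 4 other leading lower runs, 1 overlapped a protein-coding gene and 3 lay between such genes. The run at chr4:164400001-164600000, 15982 bp from the start of MARCHF1, a ubiquitin ligase of antigen-presenting cells, stood at 45.5% in DMSO and differed by -5.91 points. The run overlapping FSTL5, which encodes a secreted follistatin-like protein, at chr4:161300001-161500000, stood at 43.9% in DMSO and differed by -5.69 points. The run at chr4:155000001-155200000, 8636 bp from the start of NPY2R, a neuropeptide Y receptor, stood at 71.2% and differed by -5.44 points, and the bin at chr1:239100001-239200000, 186568 bp from the start of CHRM3, a muscarinic receptor, stood at 61.9% and differed by -6.37 points. Their levels before differentiation were 44.9%, 42.8%, 71.6% and 62.5%, close to DMSO.

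The leading higher run, at chr19:28500001-28700000, 513151 bp from the nearest protein-coding start, read 58.2% before differentiation, 51.5% in DMSO and 59.8% with the inhibitor (8.34 points). UNC13B, which encodes a protein of vesicle priming at synapses, read 66.9%, 61.8% and 68.8% in the same order over chr9:35200001-35400000 (6.99 points). BRINP3, a neural gene, read 49.2%, 45.1% and 50.8% over chr1:190100001-190300000. The run at chr14:62500001-62700000, which the potassium channel gene KCNH5 overlaps only in part, read 49.9%, 45.6% and 50.9%. A bin of chromosome 15 without a protein-coding gene, 556739 bp from the nearest start, read 56.7%, 52.3% and 60.6%. In each of the 5 the DMSO library was the low one, and the inhibitor library lay 1.01 to 3.91 points above the non-differentiated one over CpGs listed in all 3.

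Small-scale differences went with both CpG density and the surrounding domain. Among 1 kb windows at 15 to 70% before differentiation, those under 20 CpGs differed by -1.91 points in the 3 lowest deciles and -0.18 in the 3 highest. Those of 40 or more CpGs differed by 1.40 points in the 3 lowest, 0.05 (-0.03 to 0.13) in the fourth to seventh and 0.42 in the 3 highest. Among 1 kb windows with 5 to 9 shared CpGs that were at 15 to 30% before differentiation, the inhibitor library differed from DMSO by -1.76 points, and at 30 to 50% by -1.65 points. Windows of 60 or more CpGs were higher by 1.75 points at 15 to 30%, by 1.90 at 30 to 50% and by 2.1 at 50 to 70%. Windows at 85% or above differed by between -0.29 and -0.03 points at every density. Windows of 40 to 59 CpGs were higher below 50% (0.94 and 1.31 points) but lower at 50 to 70% (-1.09) and at 70 to 85% (-1.76), where the mean coverage was 36.8 and 62.7 reads in DMSO. Over all 4802 windows of 40 or more CpGs at 15 to 70%, the difference was 0.40 points (0.34 to 0.45), positive on 19 of 22 chromosomes. That value depended on how CpGs were weighted and filtered: it was 1.03 points with every CpG weighted equally, 0.87 without CpGs above 3 times the median coverage, and -0.75 over CpGs with at least 20 reads in both libraries. Over CpGs listed in all 3 libraries, the non-differentiated library was at 44.2% in these windows, DMSO at 42.8% and the inhibitor library at 43.2%, so the inhibitor library lay between the others. In dense windows the coverage ratio was 1.08 where methylation was 0 to 5% and 1.04 where it was 85 to 100%.

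**Figure D3:**
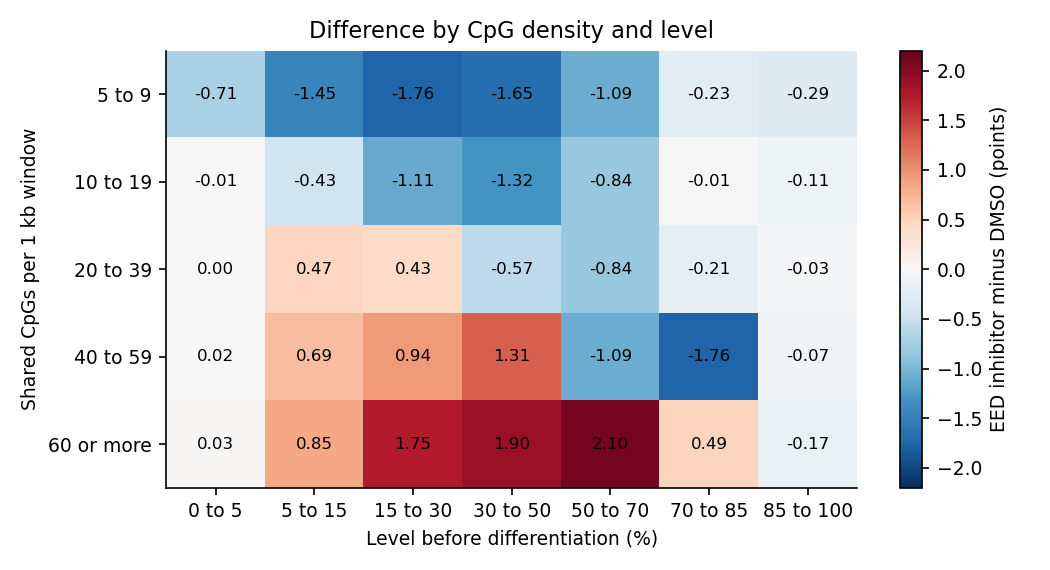
Difference in methylation, EED inhibitor minus DMSO in points (colour and number), for 1 kb windows by level before differentiation (horizontal, percent) and shared CpGs per window (vertical). Sparse windows of intermediate level are negative, down to -1.76, and the densest windows of intermediate level positive, up to 2.1.

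The surroundings of developmental regulators, the classic targets of Polycomb, were more methylated with the inhibitor than in DMSO. The list held the homeobox, paired-box and T-box families to which HOXA4, DLX2, IRX2, LHX1, NKX2-5, OTX1, PAX8, SIX3 and TBX20 belong, and 16 other known targets such as CDKN2A and GATA4, 118 genes in all, whose surroundings within 10 kb of a start merge into 87 neighbourhoods. Their 46656 shared CpGs were at 30.2% before differentiation, 29.0% in DMSO and 30.1% with the inhibitor (1.13 points, 1.00 to 1.25). Of the 86 neighbourhoods with at least 50 shared CpGs, 66 were higher and 20 lower, with a median of 1.03 points and a range of -2.59 to 7.24. Around 18103 other protein-coding starts 42.2% were higher and the median was -0.31 points, and around the 3203 of these at 50% or less before differentiation 36.3% were higher, with a median of -0.63. The difference was 1.17 points in CpG islands near listed genes and 0.02 elsewhere, 1.22 and -0.64 in dense sequence outside them, and 0.89 and -1.17 in sparse sequence. These sides were not matched for level. In DMSO islands stood at 19.9% near listed genes and 35.1% elsewhere, dense sequence at 35.3% and 73.1%, and sparse sequence at 40.5% and 56.3%. All islands at 15 to 30% before differentiation, near listed genes or not, were 1.07 points higher, and those at 30 to 70% 1.15 points. Without the HOX genes the difference was 0.97 points. Over CpGs listed in all 3 libraries, DMSO was below the non-differentiated library in 71 of the 86 and the inhibitor library above it in 46, and the inhibitor library differed from it by 0.06 points over all neighbourhoods. Over the whole genome the inhibitor library differed from it by -2.44 points on such CpGs. DMSO was below it in 73.0% of all 10 kb windows and 92.4% of all 100 kb bins, over CpGs shared by those libraries.

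**Figure D4:**
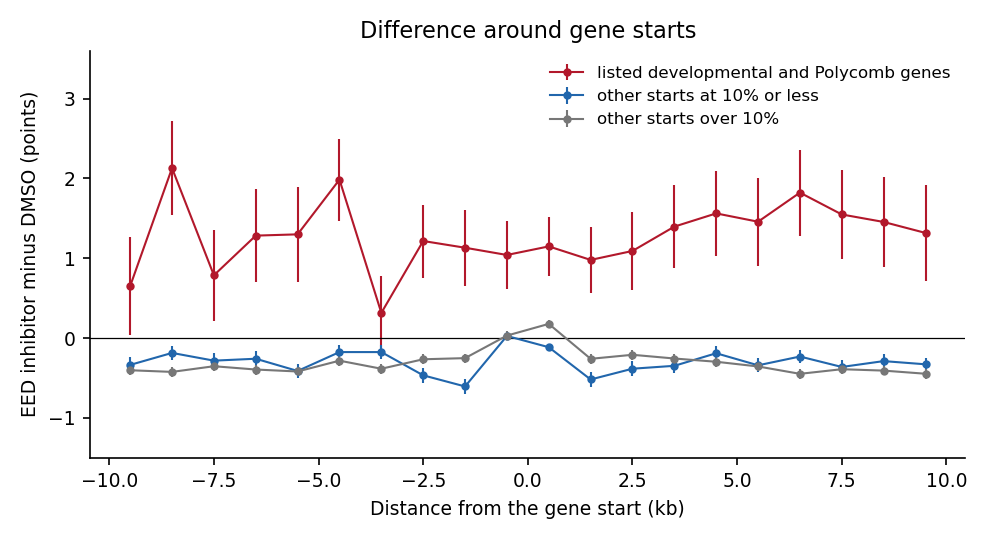
Difference in methylation, EED inhibitor minus DMSO in points with 95% counting intervals, in 1 kb steps of distance from the gene start. The 118 listed genes are above 0 in all 20 steps, between 0.32 and 2.13 points, and the other starts lie between -0.61 and 0.18.

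**Figure D5:**
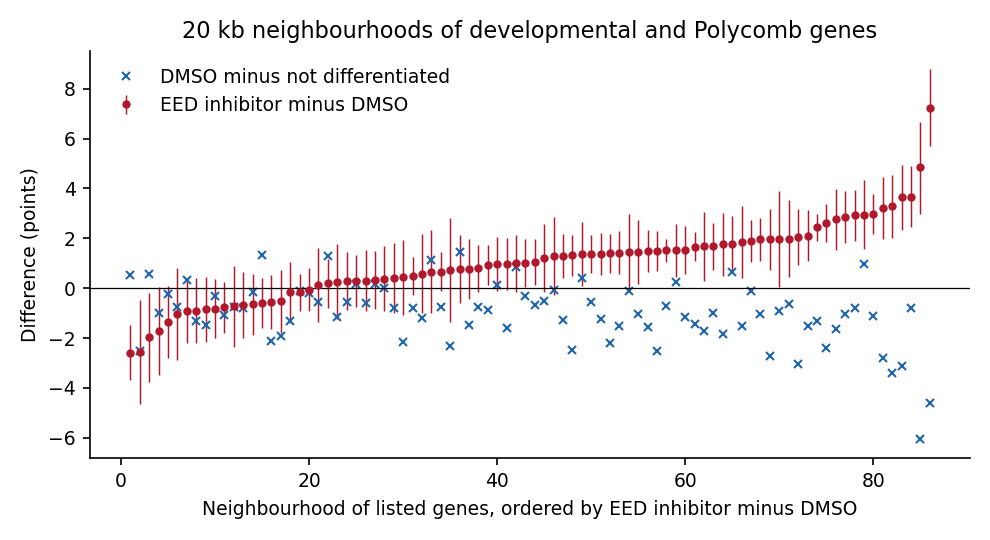
Difference in points for each of 86 neighbourhoods of listed genes, ordered by EED inhibitor minus DMSO (circles, with 95% counting intervals), with DMSO minus non-differentiated for the same neighbourhood over CpGs listed in all 3 libraries (crosses). Circles are above 0 in 66 of 86, from -2.59 to 7.24 points.

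The neighbourhood with the largest difference was that of NEUROG1, a proneural transcription factor, which stood at 71.8% before differentiation and 67.8% in DMSO and was 7.24 points higher with the inhibitor. That of CDKN2B, a cell cycle inhibitor beside CDKN2A, read 60.3%, 54.3% and 58.1% over CpGs listed in all 3 libraries. TBX20, a cardiac regulator, read 26.8%, 25.3% and 28.9%, and OTX1, a forebrain regulator, 40.6%, 37.2% and 40.9%. The HOXD10 to HOXD13 neighbourhood, with HOXD8 and HOXD9, stood at 12.7% in DMSO and was 2.44 points higher, and the one from HOXB3 to HOXB9 stood at 40.2% and was 2.62 points higher; HOX genes set position along the body axis. On the other side SIX5 stood at 64.2% and differed by -2.59 points, and PAX4, a regulator of pancreatic islet cells, at 45.1% and -2.57 points.

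Promoters of these families were measured for 101 of 102 developmental regulators. Of these 63 were higher (62.4%, against 50.9% of all promoters) and 38 lower, the median difference was 0.57 points against 0.03 over all 17707 promoters, and 18 were higher by at least 5 points (17.8% of the list, against 9.74% of all promoters), 3 lower by as much, as were 7.96% of all promoters. No member reached 20 points, the size that 5 promoters passed upwards (0.0282%) and 3 downwards (0.0169%) among all. The largest were IRX2, of the Iroquois family, at 7.49% before differentiation, 4.26% in DMSO and 17.1% with the inhibitor, HOXD4 at 12.2%, 11.4% and 23.4%, and HOXA4 at 60.9%, 51.9% and 63.2%. PAX8, a thyroid and kidney regulator, read 41.2%, 34.7% and 45.4%. NKX2-5, a cardiac regulator, was the lowest, with 16 CpGs at 23.6% in DMSO and at 15.9% in treated cells, and at 28.4%, 31.8% and 19.1% over the 10 listed in all 3 libraries, with PAX7, of the muscle lineage, at 30.4%, 26.2% and 20.4%. The other classic targets were 11 higher and 5 lower of 16, led by NEUROG1 (37.9%, 33.0% and 44.7%) and BMP2, a bone morphogenetic protein (49.5%, 43.9% and 52.2%). In DMSO minus non-differentiated the regulators' median was -0.57 points, against -0.24 over all promoters. Of 98 regulators 39 were higher, near the 43.5% of all promoters that were.

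Gene bodies, measured from 2 kb after the start, were called 8 times upwards (0.0523%) and never downwards at 10 points among 15305; MPDZ, at -9.53, was the nearest below. Among the 8, OTX1 (44.3% before differentiation, 36.7% in DMSO, 47.6% with the inhibitor) and CDKN2B (63.0%, 56.4% and 66.8%) are on the lists, and MSX1 (39.8%, 37.2% and 51.8%) and PHOX2A (70.7%, 60.6% and 72.5%), are homeobox genes outside them. FBXL8, an F-box protein, moved most, from 46.3% to 61.2% with 57.4% before differentiation. EPOR, the erythropoietin receptor and a marker of the line, read 77.0%, 71.6% and 82.9% over its body (11.2 points, 9.36 to 13.1) and 48.5% in DMSO and 52.9% with the inhibitor at its promoter. ZNF703 and CHRNE complete the 8. For all 8, DMSO was the lowest library and the inhibitor library the highest. The inhibitor library lay a median of 4.81 points above the non-differentiated one over CpGs listed in all 3 libraries. Called bodies had 18.5 reads per CpG in DMSO and 20.5 with the inhibitor against 28.2 and 29.9 over all bodies. Their median number of shared CpGs was 100.5, against 378 over all bodies. Over CpGs with at least 20 reads in both libraries the difference was 14.6 points for FBXL8 (53 CpGs), 9.84 for EPOR (74), 4.83 for OTX1 (50), 16.6 for MSX1 (22), 6.84 for CDKN2B (24), 9.11 for ZNF703 (10), 15 for PHOX2A (2) and -0.69 for CHRNE (5). With the minimum of 50 CpGs, 1 body was then called upwards instead of 8, and 1 when the non-differentiated library took the place of DMSO. Of 61 regulator bodies measured 36 were higher, with a median of 0.63 points against -0.32 over all bodies, of which 36.4% were higher.

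Among single promoters, PPP1R14B, which encodes a phosphatase inhibitor, read 35.8% before differentiation, 14.2% in DMSO and 37.8% with the inhibitor, so DMSO alone was low. PLEKHA5 (38.7%, 29.5% and 53.3%, 9 CpGs) and PIK3AP1, an adaptor of phosphoinositide signalling (35.7%, 31.8% and 54.4%, 6 CpGs), were higher than both. In each of these 2 promoters 4 CpGs had at least 20 reads in both libraries. Called promoters held few CpGs, with a median of 11 in either direction against 34 over all promoters. GCSAM, a germinal centre B cell gene, read 39.9%, 24.7% and 46.3%. TSSK3, a testis kinase, covers 33 CpGs that read 41.3% in DMSO and 62.8% in treated cells, and 70.3%, 55.5% and 74.8% over the 23 listed in all 3 libraries; its difference was -1.56 points over the 2 CpGs with at least 20 reads. Downwards, VN1R5 read 52.5%, 51.7% and 30.6%, and over CpGs listed in all 3 libraries FOXI1, a forkhead factor, read 59.7%, 70.9% and 46.3%, and OAT, ornithine aminotransferase, 70.4%, 73.2% and 52.6%. Over all CpGs shared by the inhibitor and non-differentiated libraries alone, their difference at FOXI1 was -7.39 points. None of the 10 FOXI1 CpGs had 20 reads in both libraries, so that check could not be made there. Over the 10 CpGs with at least 20 reads the OAT difference was -13.6 points, short of a call. OAT lies on the segment of chromosome 10 with more reads in the inhibitor library.

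CpG islands as a whole gave no stable direction. Over their CpGs the level was 34.7% in DMSO and 34.8% in treated cells (0.04 points, 0.02 to 0.07), and the difference was 0.54 points with equal weights, -0.37 for a looser island definition and -0.12 with at least 20 reads. By level before differentiation, islands at 5 to 15% were 0.58 points higher, at 15 to 30% 1.07 and at 30 to 70% 1.15, while those at 0 to 5% (0.0016), 70 to 85% (-0.08) and 85 to 100% (-0.08) lay closer to 0. Of 23830 islands with at least 5 shared CpGs, 300 were higher by at least 10 points (1.26%) and 174 lower (0.730%). Broad unmethylated valleys, runs of at least 5 windows of 1 kb at 15% or less before differentiation, were slightly higher: over 229 valleys the level was 5.10% in DMSO and 5.58% with the inhibitor (0.48 points, 0.41 to 0.54), with 5.15% before differentiation, and 148 were higher. The 19 valleys with the start of a listed regulator or target inside went from 6.95% to 8.22%, with 7.65% before differentiation and 17 of 19 higher. The 11 valleys of 10 kb or longer were all higher, at 7.53% against 6.38%. Over CpGs listed in all 3 libraries the inhibitor library was also above the non-differentiated one, by 0.39 points over all valleys and 0.59 over the 19; the valleys were chosen by a low level in that library.

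Genes of the methylation and Polycomb machinery differed by a few points at most over their bodies. Bodies of PRC2 genes were lower in 9 of 10, against 63.6% of all bodies, with a median of -0.40 points, close to -0.32 over all genes. The EED body was at 92.0% in DMSO and 91.5% with the inhibitor, and that of EZH2 at 85.3% and 84.4%. The EED promoter was at 0.29% and 1.03%, and that of SUZ12, another core subunit, at 27.0% and 31.9%. Of 11 bodies of DNA methylation genes 4 were higher and 7 lower, with a median of -0.05 points. The body of DNMT3B, a de novo methyltransferase, stood at 76.9% before differentiation, 73.4% in DMSO and 76.7% with the inhibitor, and that of ZBTB38, a reader of methylated DNA, was 3.69 points above 66.3% in DMSO. DNMT1, the maintenance enzyme, was at 92.9% in both. The promoter of UHRF1, its partner, read 54.3% before differentiation, 66.0% in DMSO and 56.8% with the inhibitor, and that of UHRF2 6.84% in DMSO and 16.0% with the inhibitor.

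The labels tie the inhibitor to fetal haemoglobin. Of 19 measured promoters of globin genes and their regulators 10 were higher, with a median of 0.11 points against 0.03 over all promoters. HBG2, a fetal globin gene, read 86.7% before differentiation, 80.2% in DMSO and 81.4% with the inhibitor, and HBG1 96.4%, 95.8% and 95.7%; these genes are near-identical copies, so reads can be split between them. HBB, the adult gene, read 15.2%, 15.2% and 21.5% over 10 CpGs (difference -0.17 to 12.6). BCL11A, the repressor of fetal globin, was at 82.0% in DMSO and 80.8% with the inhibitor over its body, and IGF2BP1, an RNA-binding protein of fetal cells, at 75.2% and 77.4%; MYB, a factor of erythroid progenitors, differed by -2.48 points. Bodies of globin regulators were 8 higher and 5 lower of 13, or 61.5% higher against 36.4% of all bodies, with a median of 0.23 points against -0.32.

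Of 12 imprinted promoters measured 8 were higher and 4 lower, with a median of 1.58 points; over all promoters 50.9% were higher, with a median of 0.03. SNRPN, expressed from the paternal copy, read 53.9% before differentiation, 60.2% in DMSO and 45.0% with the inhibitor (-15.2 points, -19.8 to -10.4). PEG3 differed by -0.61 points and DIRAS3 by 0.51 points. Promoters of other blood lineages were 5 higher and 9 lower of 14, with a median of -1.11 points; MPO, a granulocyte enzyme, stood at 28.5% in DMSO and 37.8% in treated cells, over 9 CpGs, and PF4, a platelet factor, at 77.5% and 69.4%. Of 14 erythroid promoters 5 were higher and 8 lower, with AHSP, the alpha globin chaperone, reading 37.8%, 49.2% and 42.5%. No promoter of these lists was called.

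Small regions were lower more often than higher. Of 265144 windows of 10 kb, 110 were lower by at least 10 points (0.0415%) and 38 higher (0.0143%), and of 1858954 windows of 1 kb, 204 were lower by at least 25 points (0.011%) and 61 higher (0.00328%). Called windows held few CpGs. Medians were 39 (lower) and 57 (higher) against 74 over all windows of 10 kb, and 6 in both directions against 9 for 1 kb. Of the 110 lower windows of 10 kb, 50 lay in the 3 lowest deciles, 41 in the fourth to seventh and 2 in the 3 highest. Of the 38 higher ones, 6, 28 and 2 did. Each decile holds 2666 or 2667 bins of 100 kb, and the share of all 10 kb windows in each was not counted. The others, in both directions, lay in bins that were not ranked, which have few CpGs outside islands. Some of these lower windows were far from any protein-coding start, such as chr17:23470001-23480000 (1777478 bp) and chr18:18090001-18100000 (3011813 bp). Calls of all sizes used no filter for repeats or poorly mapped sequence. DMSO minus non-differentiated gave 26 lower (0.00981%) and 5 higher (0.00189%) windows of 10 kb, 31 lower (0.00168%) and 12 higher (0.00065%) windows of 1 kb, 3 lower (0.0169%) and 1 higher (0.00564%) promoters, and 2 lower gene bodies (0.0131%) and no higher one. Lower 1 kb windows were scattered: no 2 of them joined. Of the 204, 129 lay between protein-coding genes, as did 45.8% of all windows of 1 kb, 53 in introns (36.8% of all) and 107 in the 3 lowest deciles (24.3% of all). Within 10 kb on both sides every 1 kb step was lower, between -2.65 and -0.43 points. In these steps 57.0% to 68.8% of windows were lower, against 56.0% of all windows of 1 kb. The 3 lowest deciles as a whole differed by between -2.13 and -1.64 points. The strongest lower window, that of the MARCHF1 stretch, read 41.8% before differentiation and 21.4% with the inhibitor, and the inhibitor minus DMSO difference was -38.6 points, so all 3 libraries differed. Over CpGs listed in all 3 libraries DMSO was at the outer end in 196 of the 204 lower and 59 of the 61 higher windows. The inhibitor library was at the other end in 202 of the 204 and 61 of the 61. It lay a median of -17.4 points (lower) and 12.3 points (higher) from the non-differentiated library. Among the higher ones, MIR9-3HG was the only region of more than 1 window (42.7%, 21.3% and 52.1% over 15 CpGs). The 4 single windows with the largest higher difference lay between genes on chromosome 16 (6 CpGs, 30.2% in DMSO and 76.8% in treated cells), in the noncoding gene ENSG00000280441 on chromosome 21 (36.5% and 77.8%, 37 CpGs), in RASSF8-AS1, an antisense RNA (33.0% and 69.1%, 7 CpGs), and in an intron of SV2B, a synaptic vesicle protein (27.7% and 63.0%, 5 CpGs). Higher windows had 1.11 times the reads in the inhibitor library, against 1.07 over all windows.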

How the data were processed

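Whole-genome bisulfite sequencing measured methylation in 4 libraries, of which the EED inhibitor, DMSO and non-differentiated ones were used; the DNMT1 inhibitor library was not used here. Per the submitters' processing notes, reads were trimmed with Trim Galore 0.6.7 and cutadapt 4.1, aligned to hg38 with Bismark and Bowtie2 2.1.0, and summarised with methylKit. The authors deposited, per CpG, a coverage count and the percent of reads with C and with T. The files list CpGs with at least 10 reads. Conversion rate and duplicate removal are not given in the sources used here; PCR copies and incomplete conversion would narrow the intervals and raise all levels.

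Methylated reads were coverage times percent over 100, rounded to whole reads. Reads were summed over CpGs shared by DMSO and the EED inhibitor on chromosomes 1 to 22: 672015507 reads in DMSO and 717656898 with the inhibitor. Levels beside the non-differentiated library were also taken over CpGs listed in all 3 libraries, a step added after seeing the data. Levels carry 95% Wilson intervals and differences Newcombe's interval, which cover counting error only. Units were 100 kb bins (at least 200 CpGs), 10 kb windows (20), 1 kb windows and promoters, from 1 kb before to 500 bp after a start (5 CpGs and 100 reads in each library), and gene bodies (50). Calls were by size: 5, 10, 25, 20 and 10 points. Islands had at least 500 bp, a GC share of 0.55 and an observed to expected CpG ratio of 0.65 in the reference. Genes were GENCODE 44. Named genes were all members of the lists, the 10 most changed called promoters and bodies per direction, the 8 leading 1 kb regions and the 5 longest runs; the AGK body and the neighbourhood examples were chosen after their values were seen. Members and lists were chosen with earlier results of these data known. Python 3.11.15, numpy 2.4.6, pandas 2.3.3 and pysam 0.24.0 were used; the call rule was checked on simulated reads. Alternatives were a minimum of 20 reads, the non-differentiated library as reference, leaving out chromosomes 18 and 10 or over-covered CpGs, equal weights, other call sizes, and other island and valley definitions; those for dense windows and gene neighbourhoods were chosen after seeing the data.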

Additional observations from a re-analysis of the deposited data

How the results depend on the processing

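No paired analysis was possible because each group has 1 library. Directions held in the lowest and highest deciles and in valleys under the alternatives run for each. The 8 deciles between were not rerun. In developmental neighbourhoods the direction held under the alternatives that kept DMSO as the reference. With the non-differentiated library as the reference the neighbourhood value fell from 1.13 to 0.118 points, which gives no clear direction. Directions did not hold for CpG islands and dense windows, and the cause was not tested. With non-differentiated cells as the reference the differences were -2.43 points genome-wide, -2.64 and -1.58 in the lowest and highest deciles, 0.346 in valleys and 0.118 in developmental neighbourhoods over CpGs listed in those libraries (0.0595 in the last over CpGs of all 3 libraries), and turned to -1.51 in islands and -0.915 in dense windows; counts became 145 lower and 3 higher bins, 245 and 5 windows of 10 kb, 14 higher windows of 1 kb, 3 higher promoters and 1 higher gene body. With at least 20 reads they were -1.09, -2.24, -0.271 and 0.390 in the first 4, and turned to -0.116 in islands, -0.752 in dense windows, -1.56 at the TSSK3 promoter and -0.693 over the CHRNE body; 35 bins were lower, 10 promoters and 1 gene body higher. Without chromosomes 18 and 10 they were -1.03 genome-wide, -2.11 in the lowest decile and 0.330 in dense windows. Without CpGs above 3 times the median coverage they were -0.994, -2.16 and 0.868. With equal weights they were -0.671 genome-wide, -0.190 in the highest decile, 0.537 in islands, 0.639 in valleys, 1.03 in dense windows and 1.28 in developmental neighbourhoods (0.973 without HOX genes, weighted by reads). Looser islands gave -0.374 and valleys of 10 windows 1.15. Other call sizes gave 1495 lower and 107 higher bins at 3 points, 3 and 1 windows of 10 kb at 15 points, 1912 and 529 windows of 1 kb at 20 points, 198 and 260 promoters at 10 points, and 47 and 67 gene bodies at 5 points. Of 123 alternatives run on single genes, regions and runs, 2 changed direction, both given above.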
